A study of Rattus norvegicus with 6 samples.

Results

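Organic anion and cation transporters were examined in renal cortex of male Sprague-Dawley rats dosed with the chlorinated sulfone bis(p-chlorophenyl) or with vehicle. They comprised 8 genes, Slc22a2, Slc22a5, Slc22a6, Slc22a7, Slc22a8, Slco1a1, Slco4c1 and Slc47a1. The genes were taken by name, through probes of a 1-colour Agilent rat array whose accession belongs to one of them, and covered 14 of 61537 probes. All 8 were measured among 15645 genes on the array and all 8 passed the filter that left 12118 genes. That filter kept a probe that was well above background, the scanner software's own detection call, on all arrays of at least 1 group. Slco4c1 passed through the treated arrays only, since its brighter probe was well above background on 2 of the 3 vehicle arrays.

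The rats were 5 weeks old at purchase. The 3 vehicle animals received corn oil for 4 weeks and the 3 treated animals received sulfone bis(p-chlorophenyl) at 250 mg/kg per day for 4 weeks. Animals of both groups were of the same sex, strain and basal diet, and 1 array was hybridised per animal. The comparison is of transcript levels between dosed and vehicle animals.

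These transporters move charged metabolites, hormones and drugs across proximal tubule cells from blood to urine. Slc22a6 (OAT1) and Slc22a8 (OAT3) take organic anions up from the blood side in exchange for dicarboxylates, and Slc22a2 (OCT2) takes up organic cations. Slc47a1 (MATE1) releases cations into the lumen in exchange for protons, and Slc22a5 (OCTN2) recovers carnitine from it. The proximal tubule has a convoluted part, segments S1 and S2, and a straight part, segment S3. In the rat OAT1 lies mainly in S2, OCT2 in S2 and S3, and OAT2 (Slc22a7) and OATP1A1 (Slco1a1) on the luminal side of S3. OATP4C1 (Slco4c1) lies on the blood side of the proximal tubule.

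Values are log2 of the background-subtracted signal minus the 75th percentile of the array, so 0 is the signal at that percentile. The 75th percentile itself was 910.3 to 1101 signal units, and 66.1% to 68.2% of probes per array were well above background. Genes of cortex were detected on all arrays, among them the podocyte gene Nphs1 and the proximal tubule gene Slc34a1. The thick ascending limb gene Umod, which does not define cortex, was detected on all arrays too. Vehicle 1 to 3 and treated 1 shared a slide and a scan, and treated 2 and 3 lay on another slide and scan. Blocking on slide therefore leaves treated 1 against the vehicle arrays. Without treated 1, limma called 1467 probes higher and 2768 lower, against 1 and 2 with all arrays. Slide and treatment cannot be told apart in that fit.

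The 8 genes fell into 2 sets of 4 by how far their signal spread over the arrays. Slc22a6, Slc22a8, Slc47a1 and Slc22a5 spanned 0.27 to 0.40 log2 units from the lowest to the highest array. Slc22a2, Slc22a7, Slco1a1 and Slco4c1 spanned 2.05 to 4.83, and 14.8% of tested genes spanned at least 1. In the second set the means of treated cortex were 1.81-fold to 4.29-fold those of vehicle, but for each of the 4 the span of the vehicle arrays exceeded the difference between group means. No member passed limma at an adjusted p under 0.05 over all probes. Of all tested genes 0.0165% (2 of 12118) passed it, 0.00825% higher and 0.00825% lower. At an unadjusted p under 0.05 in limma there were 3 of 8 members, Slc22a7 and Slco4c1 higher and Slc22a5 lower, against 21.4% of all tested genes (10.1% higher and 11.3% lower). By their brightest probe, these 3 members were also those with no overlap between groups, against 30.7% of all genes (13.9% higher and 16.8% lower). With 8 genes, neither count stands as a result about the members. The exact two-sided permutation test of 3 against 3 arrays cannot go below 0.1.

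**Figure D1:**
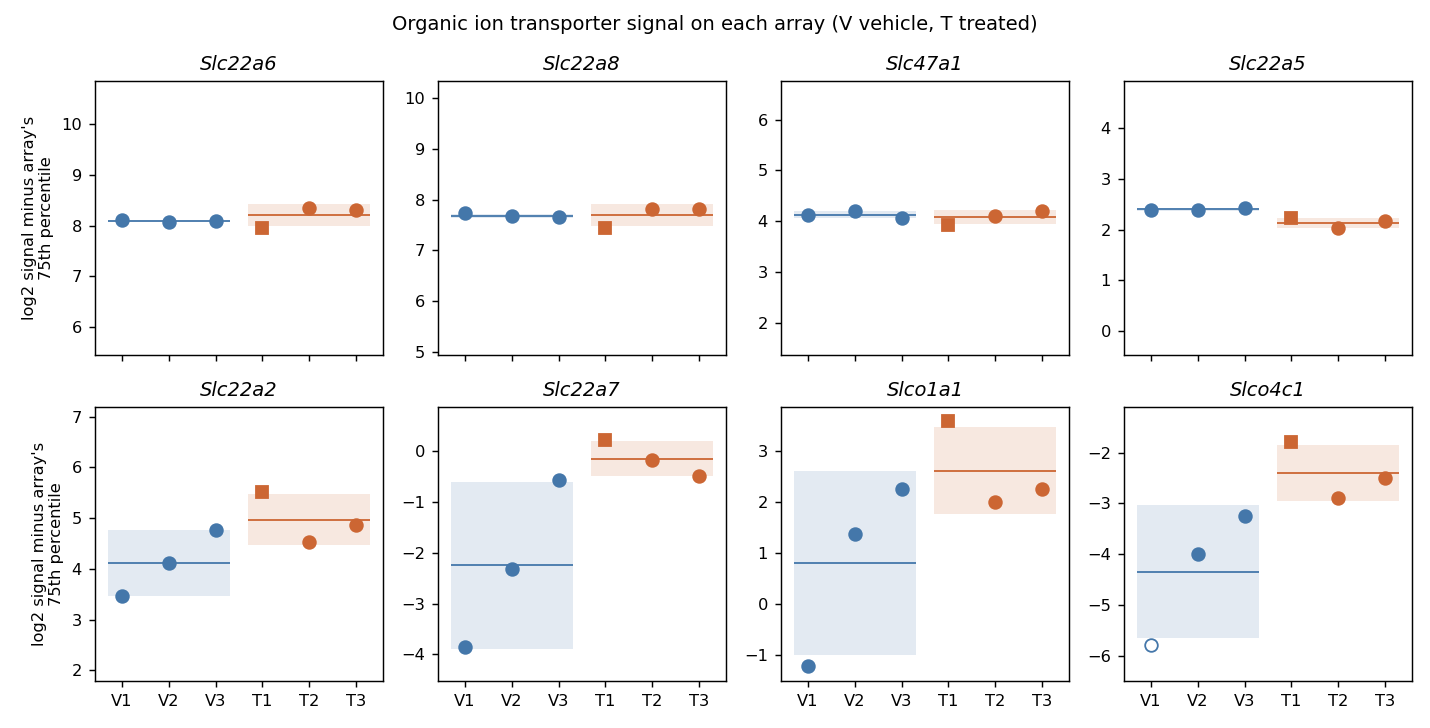
Log2 signal minus the array's 75th percentile for the brightest probe of each gene on the vehicle (V1 to V3, blue) and treated (T1 to T3, orange) arrays. Lines are group means, shaded bands 1 SD (n = 3), every panel spans the same number of log2 units, the square marks the treated array that shared the slide of the vehicle arrays, and the open circle marks a value not well above background. The upper 4 genes stay within 0.40 log2 units over all arrays, while V1 is the lowest and T1 the highest array for each of the lower 4 genes.

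No difference was detected for the transcripts of OAT1 and OAT3. Slc22a6 read 8.12, 8.07 and 8.09 on vehicle 1 to 3 and 7.95, 8.34 and 8.31 on treated 1 to 3. Treated 1 lay below and treated 2 and 3 above all vehicle arrays, so the groups overlapped. The group means were 8.09 ± 0.025 (SD, n = 3) and 8.20 ± 0.22 (SD, n = 3), a difference of 0.11 (SE 0.12, limma adjusted p = 0.64). Its 95% confidence interval ran from -0.19 to 0.40. The dimmer of its 2 probes differed by -0.046.

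Slc22a8 followed the same order, with 7.73, 7.68 and 7.65 on vehicle 1 to 3 and 7.45, 7.82 and 7.81 on treated 1 to 3. Again treated 1 was the lowest array and treated 2 and 3 the highest. The difference was 0.0082 (SE 0.12, limma adjusted p = 0.97), with a 95% confidence interval from -0.28 to 0.30. The dimmer probe of Slc22a8 differed by -0.10 (SE 0.12). With slide as a fixed block both genes were lower in the treated array. The brighter probes then differed by -0.14 for Slc22a6 and -0.24 for Slc22a8, and the dimmer probes by -0.32 and -0.35. Slc22a6 and Slc22a8 are next to each other in the RefSeq gene order of assembly GRCr8. Their signals followed each other over the 6 arrays (Pearson's r = 0.92, a description), and also with each group centred on its own mean (r = 0.99).

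For the luminal exchanger Slc47a1 no difference was detected either. It read 4.13, 4.19 and 4.06 on vehicle 1 to 3 and 3.92, 4.11 and 4.19 on treated 1 to 3. Treated 1 was the lowest array, and treated 3 was level with the highest vehicle array. The difference was -0.053 (SE 0.096, limma adjusted p = 0.775), with a 95% confidence interval from -0.29 to 0.18. Its second probe differed by -0.033.

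The carnitine transporter Slc22a5 was the only member whose brightest probe was lower in treated cortex without overlap. That probe read 2.38, 2.39 and 2.43 on vehicle 1 to 3 and 2.22, 2.03 and 2.16 on treated 1 to 3. All 3 treated arrays were below all 3 vehicle arrays. The difference was -0.26 (SE 0.080, limma adjusted p = 0.17), or 0.83 of the vehicle level, with a 95% confidence interval from -0.46 to -0.067. Its other probe, for the same RefSeq accession, ran the other way. It read 0.54, 0.58 and 0.53 on vehicle 1 to 3 and 0.59, 0.63 and 0.88 on treated 1 to 3, a difference of 0.15 (SE 0.098, limma adjusted p = 0.42). For that probe too the groups did not overlap, with all treated arrays above all vehicle arrays. The probes of this gene thus disagreed in direction, and their mean differed by -0.058.

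**Figure D2:**
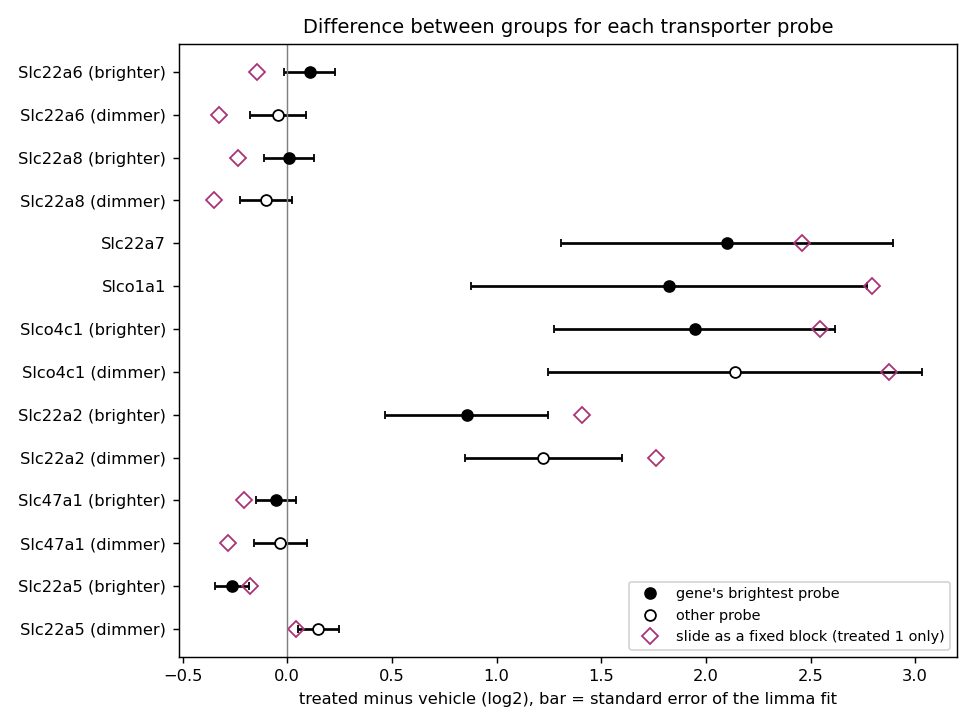
Treated minus vehicle on the log2 scale for each of the 14 probes, with bars for the standard error of the limma fit over all 6 arrays (n = 3 per group). Filled circles are the brightest probe of a gene, open circles its other probe, and diamonds the estimate with slide as a fixed block. Slc22a7, Slco1a1, Slco4c1 and Slc22a2 lie at 0.86 to 2.14 with wide bars, the other probes at -0.26 to 0.15, and both probes of Slc22a5 lie on opposite sides of 0.

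The cation uptake transporter Slc22a2 differed in level between animals of one group. Its brighter probe read 3.47, 4.11 and 4.76 on vehicle 1 to 3 and 5.52, 4.52 and 4.87 on treated 1 to 3. Treated 1 was the highest array, vehicle 1 the lowest, and vehicle 3 exceeded treated 2, so the groups overlapped. The vehicle mean was 4.11 ± 0.64 (SD, n = 3) and the treated mean 4.97 ± 0.51 (SD, n = 3). They differed by 0.86 (SE 0.39, limma adjusted p = 0.27), by 0.54 without vehicle 1 and by 1.41 with slide as a fixed block. Its second probe read 0.67, 1.24 and 1.90 on vehicle 1 to 3 and 3.03, 2.07 and 2.38 on treated 1 to 3. There the groups did not overlap, and the difference was 1.22 (SE 0.37, limma adjusted p = 0.17).

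Slc22a7 encodes the anion transporter OAT2. It read -3.86, -2.31 and -0.57 on vehicle 1 to 3 and 0.21, -0.16 and -0.49 on treated 1 to 3. The groups did not overlap, but the lowest treated array exceeded the highest vehicle array by only 0.084. The vehicle arrays spanned 3.29 and the treated arrays 0.70. The difference was 2.10 (SE 0.79, limma adjusted p = 0.22), or 4.29-fold, with a 95% confidence interval from 0.16 to 4.04. Without vehicle 1 it was 1.30 (limma adjusted p = 0.39).

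Slco1a1, which carries bile acids and steroid conjugates, spread most over the arrays. It read -1.23, 1.37 and 2.26 on vehicle 1 to 3 and 3.60, 2.00 and 2.27 on treated 1 to 3. Vehicle 3 and treated 3 were level, and treated 2 lay below vehicle 3. The difference was 1.82 (SE 0.95, limma adjusted p = 0.32), and it was 0.81 without vehicle 1 and 2.80 with slide as a fixed block. Only 0.347% of tested genes had a vehicle span as wide as the 3.50 of Slco1a1.

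Slco4c1, which carries digoxin and thyroid hormone, was dim. Its brighter probe read -5.79, -3.99 and -3.25 on vehicle 1 to 3 and -1.80, -2.90 and -2.50 on treated 1 to 3, and the vehicle 1 value was not well above background. All 3 treated arrays were above all 3 vehicle arrays. The difference was 1.95 (SE 0.67, limma adjusted p = 0.20), or 3.85-fold, with a 95% confidence interval from 0.31 to 3.59. It was 1.92 with dim values raised to the lowest signal well above background on the array. Without vehicle 1 it was 1.22. With the normexp background correction it was 1.16. The groups overlapped for the second probe, where treated 2 (-4.35) lay below vehicle 3 (-4.11). That probe differed by 2.14 (SE 0.89, limma adjusted p = 0.25), with a 95% confidence interval from -0.046 to 4.32.

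These 4 genes shared the order of the arrays. In Slc22a2, Slc22a7, Slco1a1 and Slco4c1 vehicle 1 was the lowest and treated 1 the highest of the 6 arrays, an order that 4.54% of tested genes had. That share is over all tested genes. The share among the 14.8% of genes that spanned at least 1, as these 4 do, was not computed. A vehicle span of at least 1 was found for 4 of the 8 members against 3.97% of tested genes. Both measures were chosen after the values had been seen. Over the 6 pairs among these 4 genes, Pearson's r over the 6 arrays ran from 0.92 to 0.98 and Spearman's rho from 0.83 to 1. With each group centred on its own mean, r ran from 0.86 to 0.99. These correlations are descriptions over the same 6 arrays. Among vehicle arrays vehicle 3 was the highest for all 4 genes. Among treated arrays treated 2 was the lowest for Slc22a2, Slco1a1 and Slco4c1, and treated 3 for Slc22a7.

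**Figure D3:**
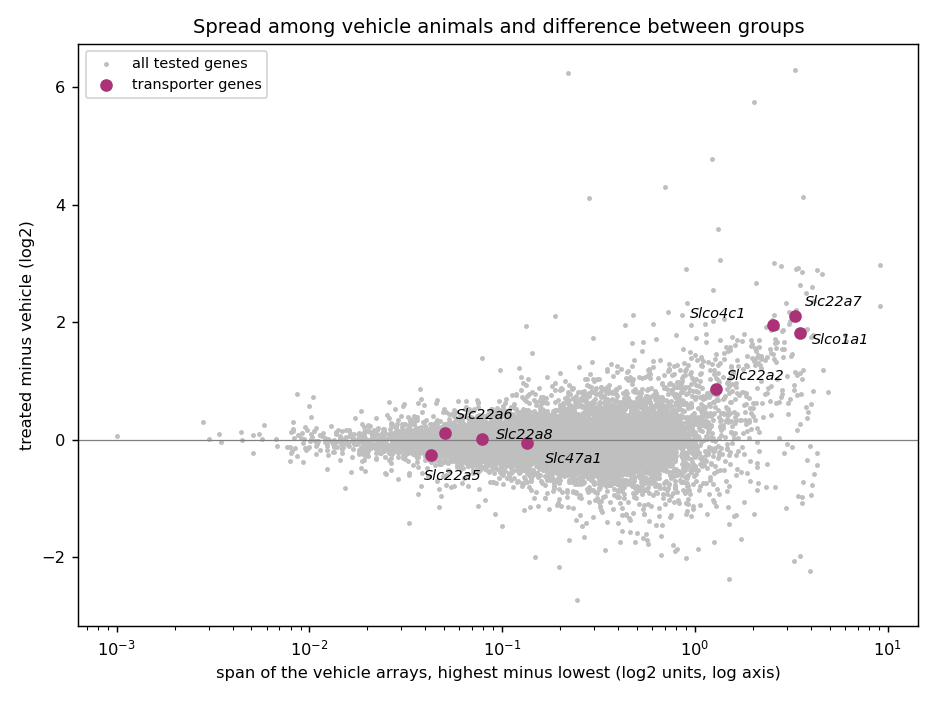
Each point is 1 tested gene (brightest probe), with the span of its 3 vehicle arrays in log2 units on a log axis and its treated minus vehicle difference (log2) on the vertical axis. Transporter genes are marked and named. Slc22a2, Slc22a7, Slco1a1 and Slco4c1 lie at vehicle spans of 1.29 to 3.50, where few genes lie, and the other 4 lie at spans of 0.043 to 0.13 near no difference.

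Most markers of the straight segment S3 had the same lowest and highest array as the 4 spreading transporters. The S3 list held 7 genes, all well above background on all arrays. Like the other lists it was chosen with earlier results of these data known, so its counts are descriptions only. Vehicle 1 was the lowest and treated 1 the highest array for 5 of the 7. Slc7a13, an S3 amino acid carrier, read 2.50, 5.27 and 6.26 on vehicle 1 to 3 and 7.43, 6.12 and 6.13 on treated 1 to 3. Vehicle 1 was low and treated 1 high, as for Slco1a1. The neutral amino acid carrier Slc6a18 ran from 4.05 on vehicle 1 to 5.16 on treated 1, a difference between groups of 0.67 (SE 0.16). The luminal glutathione-degrading enzyme Ggt1 had a narrower range, from 5.13 on vehicle 1 to 6.15 on treated 1.

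With every gene centred on its own mean, the median of the S3 list was -0.57, -0.34 and 0.044 on vehicle 1 to 3 and 0.45, 0.046 and 0.37 on treated 1 to 3. Its summed scaled signal was 502.4 to 667.4 in vehicle and 783.5 to 888.1 in treated arrays, without overlap. That sum is weighted to the brightest genes, Acy3 and Slc3a1, both named after their values had been seen. Acy3 did not have the array order, being lowest on vehicle 2 (7.76) and highest on treated 3 (8.59). Slc3a1 had it, but its groups overlapped. The sum without Acy3 was not computed. Of the 7 genes, 0 passed limma over all probes. At an unadjusted p under 0.05, 4 were higher and 0 lower, against 10.1% and 11.3% of all tested genes. The median difference of the list was 0.52, against -0.013 over all tested genes. The order was not confined to S3. The thick ascending limb genes Slc12a1 and Umod (2 of 4 tested) had it, with Umod at 8.02, 8.34 and 8.58 on vehicle 1 to 3 and 8.79, 8.49 and 8.69 on treated 1 to 3, as had the lipid droplet gene Cidec (1 of 2 tested adipocyte genes). Of the thick ascending limb list, Kcnj1 (-0.18) and Cldn16 (-0.11, named after its values had been seen) were lower in treated arrays, Kcnj1 without overlap. The centred median of that list was -0.31, -0.048 and 0.12 on vehicle 1 to 3 and 0.31, -0.038 and 0.021 on treated 1 to 3. Its summed scaled signal was 278.4 to 412.1 in vehicle and 384.4 to 474.4 in treated arrays, a sum dominated by Umod, its brightest gene. The adipocyte list summed to 0.943 to 1.63 in vehicle and 1.99 to 2.19 in treated arrays. Of its 2 tested genes only Cidec was higher, at 1.86, while Adipoq differed by -0.082 with overlapping groups. The part of these marker differences in the transporter values was not tested. In whole cortex, fewer cells of a segment and less RNA per cell cannot be told apart.

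Markers of the convoluted segments S1 and S2 had a median near its vehicle level over all 6 arrays, and below it with slide as a fixed block (-0.32). The glucose carrier Slc2a2 had a difference of 0.76 (SE 0.12), the lactate carrier Slc5a12 of 0.43 (SE 0.14) and the endocytic receptor gene Lrp2 of -0.33 (SE 0.096). Centred likewise, the median of the 11 genes was 0.012, -0.030 and -0.0025 on vehicle 1 to 3 and -0.25, 0.21 and 0.11 on treated 1 to 3. The low value of treated 1 and the higher values of treated 2 and 3 follow the order seen for Slc22a6 and Slc22a8. The median difference between groups was 0.0070, with 0 of 11 called. At an unadjusted p under 0.05 in limma, 3 were higher and 1 lower, against 10.1% and 11.3% of all tested genes. The glucose cotransporter Slc5a2 read 7.52, 7.38 and 7.34 on vehicle 1 to 3 and 7.04, 7.36 and 7.32 on treated 1 to 3. Here too treated 1 was the lowest array, as in 6 of the 11 genes. Slc5a2, like the liver genes and the cortex markers given by name, was named after its values had been seen.

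**Figure D4:**
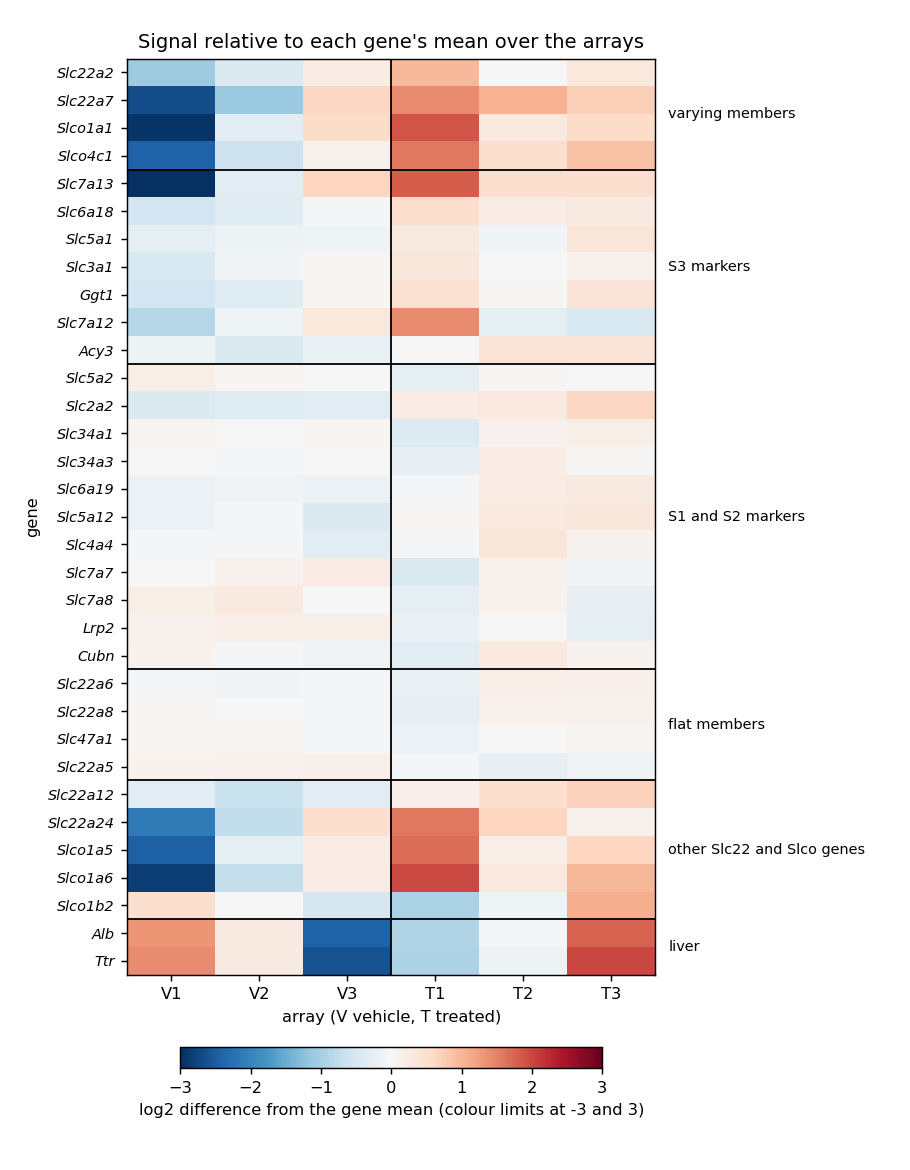
Log2 signal of each gene minus that gene's 6-array mean (colour, limits at -3 and 3), for the transporters, the markers of S3 and of S1 and S2, 5 further Slc22 and Slco genes and 2 liver transcripts. V1 is blue and T1 red in Slc22a2, Slc22a7, Slco1a1, Slco4c1, Slc7a13, Slc22a24, Slco1a5 and Slco1a6, while Alb and Ttr are lowest on V3 and highest on T3.

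Slc22a7 and Slco1a1 are also liver genes, and liver transcripts varied between these samples, most of them in another array order. Alb, which encodes albumin, was higher on vehicle 1 (3.49) than on vehicle 3 (-0.28), and higher on treated 3 (3.92) than on treated 1 (1.26). Slco1b2, the transporter that defines the liver among these families, read -3.87, -4.32 and -4.85 on vehicle 1 to 3 and -5.28, -4.48 and -3.25 on treated 1 to 3. Vehicle 1 was thus above vehicle 3, treated 1 was the lowest array and treated 3 the highest. In Slc22a7 and Slco1a1 vehicle 1 was the lowest array and treated 1 the highest. Slco1b2 was dim and well above background on 2 of the 3 treated arrays. Of the 15 tested liver transcripts, 10 were higher on vehicle 1 than on vehicle 3, and 13 were higher on treated 3 than on treated 1. Between groups 14 of the 15 had a positive difference, with a median of 0.44 that turned to -0.42 with slide as a fixed block. The largest differences were those of the apolipoprotein genes Apoa1 at 2.32 (SE 1.01), Apoh at 2.03 (SE 0.39) and Apoa2 at 1.91 (SE 0.94). Apoh read -1.90, -1.83 and -0.66 on vehicle 1 to 3 and 0.90, 0.063 and 0.73 on treated 1 to 3. It alone of the 15 had vehicle 1 lowest and treated 1 highest, as Slc22a7 and Slco1a1 had. Their summed scaled signal was 26.9 to 44.0 in vehicle and 25.4 to 69.3 in treated arrays, and the part of these transcripts in the transporter values was not tested.

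The regions upstream of 3 spreading genes are shown because their signals moved together. Promoter entries of RefSeq (GRCr8) matched 6 of the 8 members. The 250 bases before each start were searched on both strands for the HNF4 site CAAAGTCCA. The CCAAT box was searched as its name spells it. Further motifs were the GC box, GGGCGG, and AGAACA, which the glucocorticoid receptor binds. The TATA box was searched as TATAAA. Capitals mark matches on either strand, and the matches printed do not overlap. For Slco1a1 the table's start lies 35 bases inside the annotated gene span, and only bases outside the span are shown.
Slc22a2, chr1:50711020-50711269, minus strand: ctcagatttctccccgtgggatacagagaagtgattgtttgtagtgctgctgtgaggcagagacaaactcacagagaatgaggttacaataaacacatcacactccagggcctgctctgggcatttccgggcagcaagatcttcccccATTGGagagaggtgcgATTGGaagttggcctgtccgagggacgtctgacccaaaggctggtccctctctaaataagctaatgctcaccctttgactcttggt
Slco1a1, chr4:176682028-176682242, minus strand: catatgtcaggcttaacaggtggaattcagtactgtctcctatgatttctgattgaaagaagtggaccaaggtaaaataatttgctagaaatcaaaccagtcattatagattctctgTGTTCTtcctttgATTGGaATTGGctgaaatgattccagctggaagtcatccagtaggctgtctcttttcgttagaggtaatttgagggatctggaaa
Slco4c1, chr9:104676463-104676712, minus strand: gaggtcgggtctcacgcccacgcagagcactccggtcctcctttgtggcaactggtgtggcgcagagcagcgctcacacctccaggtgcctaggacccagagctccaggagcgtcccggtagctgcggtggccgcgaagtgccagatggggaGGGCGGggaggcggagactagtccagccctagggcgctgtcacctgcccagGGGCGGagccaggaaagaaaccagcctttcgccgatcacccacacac

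Slc22a2 and Slco1a1 each held 2 CCAAT boxes, a motif found in 34.0% of 33469 promoter windows, and Slc22a7 held 1 at 243 bases before a start that lies 826 bases inside its gene span. Slco1a1 held AGAACA at 133 bases before the start (17.5% of windows). Slco4c1 held 2 GC boxes (30.5% of windows), and Slc22a5 held 3, all within its gene span. The HNF4 site (0.338%) and TATA box (12.9%) were in none of the 6 windows. A match is a run of letters only.

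Other genes of the same families also included widely spreading ones. Of 28 listed, 23 were on the array and 19 were tested. None was called by limma over all probes. At an unadjusted p under 0.05, 5 were higher and 2 lower, against 10.1% and 11.3% of all tested genes. The median difference of the 19 was 0.12 (0.24 with slide as a fixed block). The 3 with the largest differences were Slco1a6 at 2.18 (SE 0.84), Slco1a5 at 1.67 (SE 0.76) and the steroid conjugate carrier gene Slc22a24 at 1.57 (SE 0.71). Slco1a6 read -2.15, -0.051 and 0.92 on vehicle 1 to 3 and 2.64, 0.96 and 1.66 on treated 1 to 3. Its lowest and highest arrays were those of Slco1a1, but its groups did not overlap. Of the 19 genes, 9 spanned at least 1, and 3 of these 9 had vehicle 1 lowest and treated 1 highest, as did Slc22a15 with a span of 0.38 (named after its values had been seen). Slco1a genes are close copies whose transcripts can bind each other's probes, so their separate identities are uncertain.

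Slco1a4 and Slc22a12 did not share the array order of Slco1a1. Slco1a4 is next to Slco1a1, and its vehicle values ran from -3.50 on vehicle 1 to -4.28 on vehicle 3, the reverse of Slco1a1. Slco1a4 and the urate exchanger Slc22a12 were named after their values had been seen. Slc22a12 read 4.40, 4.09 and 4.41 on vehicle 1 to 3 and 4.89, 5.24 and 5.44 on treated 1 to 3, a difference of 0.89 (SE 0.17, limma adjusted p = 0.10). Its vehicle arrays were close together, unlike those of Slc22a2.

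Exchange partners and scaffolds of organic anion uptake had a small median difference, with single genes from -0.42 to 0.79. They included the sodium-dicarboxylate carriers, which supply the counter-ion for OAT1 and OAT3, and the PDZ scaffold Pdzk1. Of 14 tested, 0 were called, and the median difference was 0.11. At an unadjusted p under 0.05 in limma, 3 were higher and 0 lower, against 10.1% and 11.3% of all tested genes. The largest differences were those of the sulfate exchanger Slc26a1 at 0.79 (SE 0.23), the scaffold Nherf2 at 0.48 (SE 0.15) and the luminal dicarboxylate carrier Slc13a2 at 0.47 (SE 0.22). Slc13a2 read 5.30, 5.32 and 5.36 on vehicle 1 to 3 and 5.35, 5.83 and 6.22 on treated 1 to 3, so treated 1 was level with vehicle. Slc26a1 was highest on treated 3 at 7.37. With slide as a fixed block the list median was -0.0078.

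Luminal exit transporters other than the members had 0 of 7 genes called by limma and a median difference of 0.054 (-0.033 without vehicle 1). At an unadjusted p under 0.05, 2 were higher and 0 lower, against 10.1% and 11.3% of all tested genes. The urate and anion carrier Slc17a3 read 4.25, 4.09 and 4.06 on vehicle 1 to 3 and 5.02, 4.61 and 4.82 on treated 1 to 3. All treated arrays were above all vehicle arrays, at a difference of 0.68 (SE 0.13, limma adjusted p = 0.0996). The efflux pump Abcc4 (MRP4) had a difference of 0.62 (SE 0.12, limma adjusted p = 0.11) and Slc17a1 of 0.27 (SE 0.12), both without overlap of the groups. Among the tested genes of this list none had vehicle 1 lowest and treated 1 highest.

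Transcription factors known to act on these transporters had a median difference of 0.20. Of 14 tested, 0 were called by limma. At an unadjusted p under 0.05, 6 were higher and 1 lower, against 10.1% and 11.3% of all tested genes. The largest differences were those of Bcl6 at 1.58 (SE 0.63), Ppara at 1.03 (SE 0.084) and Cebpb at 0.89 (SE 0.25). Ppara read 0.16, 0.11 and 0.025 on vehicle 1 to 3 and 1.08, 1.24 and 1.08 on treated 1 to 3. Its groups did not overlap, and its limma adjusted p was 0.057. Bcl6, a repressor linked to sex-dependent liver expression, read 2.76, 1.27 and 0.62 on vehicle 1 to 3 and 2.71, 3.98 and 2.71 on treated 1 to 3. Its vehicle values thus fell where those of Slco1a1 rose, while between groups both genes had a positive difference (1.82 for Slco1a1). A relation between the 2 genes was not tested. Hnf4a, named after its values had been seen, had a difference of 0.48 (SE 0.14, limma adjusted p = 0.17). None of the 14 had the array order of the 4 spreading transporters.

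The genes most like each spreading transporter were sought by Pearson's r over the 6 arrays among 1796 genes that spanned at least 1 log2 unit, as a description. For Slco1a1 they were Hnmt, which methylates histamine, at r = 0.9985, Slc7a13 at 0.997 and Dhrs7l1 at 0.995. Hnmt read -1.82, 1.02 and 1.98 on vehicle 1 to 3 and 3.43, 1.46 and 1.94 on treated 1 to 3, close to the steps of Slco1a1. For Slco4c1 they were Anxa13 (0.997), Slco1a6 (0.996) and Aadat (0.995), and for Slc22a2 they were Tgfbi (0.998), Cap2 (0.993) and Syce1 (0.992). For Slc22a7 they were the guanylyl cyclase gene Gucy2g (0.9986), Or6z5 (0.993) and the peptide transporter Slc15a2 (0.992). Gucy2g was well above background on 1 of 3 vehicle arrays, so its r rests partly on values at background. High values of r were frequent over 6 arrays. Between 110 and 135 of the 1796 genes reached r of 0.9 with a given member, which is 6.12% to 7.52%.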

How the data were processed

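Renal cortex RNA of 3 vehicle and 3 treated rats was hybridised to 1-colour (Cy3) arrays. Per the file headers, the authors extracted spot intensity values with Agilent Feature Extraction 10.7.1.1 (10.7 in the submitters' processing notes), which subtracts background. The series table they deposited holds scaled linear intensity values and was used as an alternative only. Log2 processed signal minus each array's 75th percentile was analysed for 61537 non-control probes, 11 of which had outlier flags and were left out, and 0 were saturated. Accessions were matched without versions to the RefSeq table of GRCr8, which named 28206 probes with 1 symbol, 0 with several and left 33331 unnamed. The brightest tested probe stands for a gene. Groups, taken from the labels' titles, were compared over 40643 probes with limma 3.58.1 in R 4.3.3 (two-sided, Benjamini-Hochberg, threshold 0.05), and the fit was tested on simulated data. Replicates were separate animals, and 3 arrays per group limit the precision.

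The members and gene lists were chosen with earlier results of these data known. Named genes were all members, up to 3 tested genes of each list described with the largest difference, any called gene of a list, and the 3 genes most like each member that spans at least 1. Genes outside this rule are said to have been named after their values were seen. Alternatives covered background correction, normalization, the filter, slide, replicate number, variance model, value source, probe choice and each array left out. The planned normexp correction (offset 50) was run on median spot signals because the files used here have no mean signal. A floor on dim values was added after seeing the data. Some genes of the lists and 1 motif are not reported here.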

Additional observations from a re-analysis of the deposited data

How the results depend on the processing

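Slc22a7, Slco1a1, Slco4c1 and Slc22a2 were higher and Slc22a5 lower in treated arrays under each alternative run, and no member passed limma under any of them. For Slc22a5 the direction depended on the probe. Its brightest probe was lower, its other probe was higher at 0.15, and the mean of both was -0.0575. The values of Slc22a5 that follow are those of its brightest probe. Leaving out 1 array at a time gave 1.30 to 2.94 for Slc22a7, 0.81 to 2.55 for Slco1a1, 1.22 to 2.49 for Slco4c1, 0.54 to 1.18 for Slc22a2 and -0.31 to -0.21 for Slc22a5, with omission of vehicle 1 giving the lowest value of the first 4. Slco4c1 was 1.16 with normexp and Slc22a2 1.41 with slide as a fixed block. The small differences changed sign. Slc22a6 was -0.14 with slide as a fixed block and -0.0027 as a random block. Slc22a8 was -0.050 with normexp, -0.10 with quantile normalization, -0.24 and -0.099 with slide as a fixed and random block, and -0.046 as the mean of its probes, and leaving out arrays gave -0.056 to 0.13. Slc47a1 ran from -0.11 to 0.023 without 1 array.

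Probes called higher and lower were 96 and 40 with normexp, 12 and 5 with median centring, 109 and 47 with a trended robust variance, 0 and 1 without a filter and with slide as a fixed block. They were 0 and 0 when a probe had to be above background on each of the 6 arrays, with the floor on dim values and with the replicate block, where limma gave 8001, 8432 and 7240 probes at an unadjusted p under 0.05. Same-numbered arrays did not deviate together (r = -0.21, 0.014 and -0.16), so the numbers were not taken to pair animals. Without 1 array they ran from 0 to 1467 higher and 0 to 2768 lower, the highest without treated 1. The median of the regulators was 0.13 with normexp and 0.28 as the mean of probes, that of the other family members 0.24 and that of the exchange partners -0.0078 with slide as a fixed block, which also gave -0.32 for S1 and S2, 0.37 for the thick ascending limb and -0.42 for liver. Without 1 array the first 3 lists ran from 0.13 to 0.30, from 0.085 to 0.21 and from 0.071 to 0.17. The exit transporters ran from -0.033 to 0.14. The causes of these changes were not tested. Signal over background limits Slco4c1, whose dimmer probe was well above background on 4 of 6 arrays.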
